A study of Mus musculus with 6 samples.

Results

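Skin that had received IL-13 was compared with skin that had received TSLP, both taken at the outlet of a subcutaneous pump after 7 days of release in C57BL/6 mice. The comparison rests on 2 of the 6 arrays of the series, 1 for each cytokine, chosen by their titles. The other 4 arrays are PBS skin at the outlet, PBS skin from the abdomen far from the outlet (PBS distal), and TGF-beta skin at the outlet of mouse 1 and of mouse 2, all after the same 7 days in the same strain. The labels give no dose, sex or age, and do not say how many mice stand behind the IL-13 and TSLP arrays. The 5 outlet pieces share the pump and its implantation, and each piece of whole skin holds epidermis, dermis, fat, vessels, immune cells and the muscle layer beneath.

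IL-13 is an effector cytokine of type 2 immunity. It binds a receptor of the Il4ra and Il13ra1 chains and activates STAT6, which drives genes of alternatively activated macrophages, eosinophil chemokines and, in stromal cells, the decoy receptor Il13ra2. TSLP is released by epithelium, binds a receptor of the Crlf2 and Il7r chains, activates STAT5 and conditions dendritic cells towards type 2 responses. Interferon-gamma is made by T and NK cells, and its targets include the transcription factor Irf1, the chemokine Cxcl9 and the guanylate-binding and immunity-related GTPases.

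Levels are MAS5 signals, linear intensities that are comparable between arrays for 1 gene but not between genes. Signals summed over a list are weighted towards its brightest genes. Differences are IL-13 minus TSLP on the scale log2(signal + 27.4), so a positive value means higher under IL-13 and the change of dim genes is understated. A gene entered if either array reached 165, the median signal of the series, which 7558 of 12393 genes did. Of these, 123 (1.63%) were at least 2-fold apart between the 2 TGF-beta mice, which had the same treatment, and were set aside. The remaining 7435 genes are described first. With 1 array a cytokine there is no replicate check, no error can be given for a difference, and every count below follows from a rule of size alone.

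The skins were alike over most genes, and 90.2% of the 7435 differed by less than 0.5. At least 2-fold differences were found in 78 genes (1.05%), of which 27 (0.363%) were higher under IL-13 and 51 (0.686%) under TSLP. The genes higher under IL-13 included Chil3, Il13ra2, Car4, Mmp13 and 8 muscle list genes. Those higher under TSLP included 9 interferon response genes, 4 adipocyte genes and 15 muscle genes. Of these 15, 3 were in a muscle list and 12 were picked after their values were seen, with no such pick made under IL-13. Over all 7435 genes the median difference was -0.06 and the SD 0.318. Of them, 41.0% were higher under IL-13, the share to hold beside each count by direction below. Before any gene was set aside, the cytokines were 2-fold apart in 104 of 7558 genes (1.38%), fewer than the 123 for the TGF-beta mice. Limma 3.58.1, fitted over all 6 arrays with the spread of the TGF-beta pair lent to both single arrays, called 0 of 7558 genes (0%) after Benjamini-Hochberg adjustment. This fit had 1 residual degree of freedom, so the lack of calls does not show that no gene differed.

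**Figure D1:**
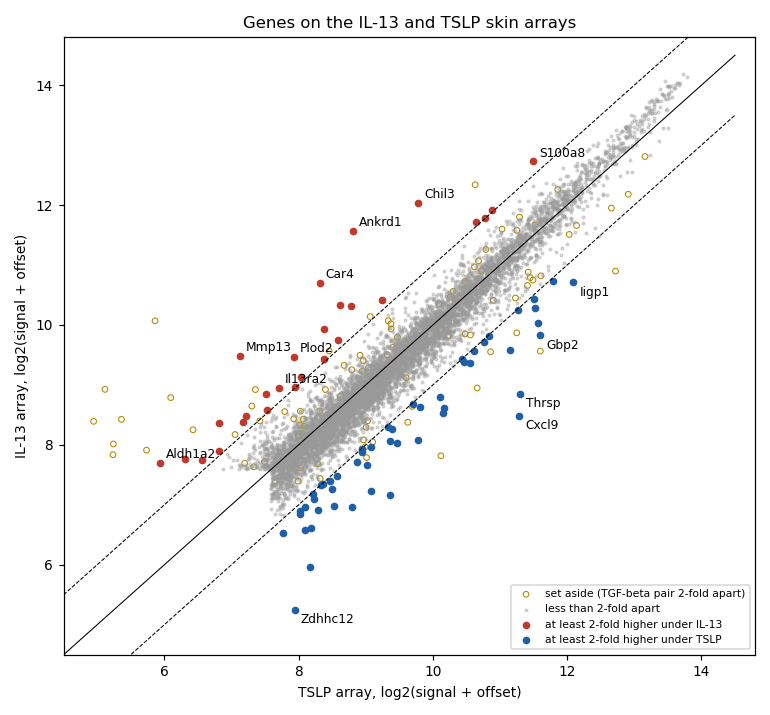
Each point is a gene, with its level on the TSLP array (x axis) and on the IL-13 array (y axis), both as log2(signal + 27.4). The solid line marks equal levels and the dashed lines a 2-fold difference. The 27 red genes lie above the upper dashed line, the 51 blue genes below the lower, and open circles are genes set aside because the TGF-beta mice differed 2-fold.

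The promoters of genes that stood together in this comparison are shown first, because interferon and STAT factors act through short sites near the start of transcription. Windows of 300 bases, 250 before and 50 after the annotated start, came from RefSeq on build GRCm38.p6. Capitals mark every match, on either strand, to 4 motifs, which overlap in no printed window. They are the interferon-stimulated response element core (GAAA, any 2 bases, GAAA), the gamma-activated site TTCNNNGAA, the STAT6 site (TTC, any 4 bases, GAA) and the kappa B site (GGGA, any 4 bases, CC). Cxcl9, Gbp2, Igtp and Irgm2 were higher under TSLP, and Chil3 was higher under IL-13.
Cxcl9 (chr5:92328030-92328329, minus strand): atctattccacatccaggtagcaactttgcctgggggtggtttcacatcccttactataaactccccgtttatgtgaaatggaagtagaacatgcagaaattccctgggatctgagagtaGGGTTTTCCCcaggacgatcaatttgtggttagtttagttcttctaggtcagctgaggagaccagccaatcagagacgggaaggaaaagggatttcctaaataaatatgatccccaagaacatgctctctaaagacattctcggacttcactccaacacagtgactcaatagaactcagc
Gbp2 (chr3:142620413-142620712, plus strand): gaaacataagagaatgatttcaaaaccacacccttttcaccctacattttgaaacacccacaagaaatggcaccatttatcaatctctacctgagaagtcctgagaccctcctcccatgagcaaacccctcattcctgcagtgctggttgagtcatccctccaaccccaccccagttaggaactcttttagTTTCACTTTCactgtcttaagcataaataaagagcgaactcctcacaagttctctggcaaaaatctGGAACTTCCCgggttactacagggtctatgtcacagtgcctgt
Igtp (chr11:58199306-58199605, plus strand): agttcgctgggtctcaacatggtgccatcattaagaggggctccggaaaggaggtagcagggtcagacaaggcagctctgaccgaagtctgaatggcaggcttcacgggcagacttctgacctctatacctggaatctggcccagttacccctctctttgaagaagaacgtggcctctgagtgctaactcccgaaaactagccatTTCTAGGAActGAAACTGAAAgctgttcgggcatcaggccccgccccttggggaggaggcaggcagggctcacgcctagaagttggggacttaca
Irgm2 (chr11:58214727-58215026, plus strand): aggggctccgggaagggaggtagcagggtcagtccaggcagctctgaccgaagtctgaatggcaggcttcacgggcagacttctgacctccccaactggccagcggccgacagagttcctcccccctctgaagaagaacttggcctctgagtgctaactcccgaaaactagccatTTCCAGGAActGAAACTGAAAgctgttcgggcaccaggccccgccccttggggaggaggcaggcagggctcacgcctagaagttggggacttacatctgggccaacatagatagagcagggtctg
Chil3 (chr3:106167515-106167814, minus strand): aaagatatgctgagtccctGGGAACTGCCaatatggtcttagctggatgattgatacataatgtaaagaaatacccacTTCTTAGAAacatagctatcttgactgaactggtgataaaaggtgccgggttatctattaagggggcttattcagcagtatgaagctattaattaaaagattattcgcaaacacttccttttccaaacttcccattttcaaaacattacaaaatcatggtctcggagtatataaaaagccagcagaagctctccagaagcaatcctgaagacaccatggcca

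Igtp and Irgm2, neighbouring members of 1 GTPase family, have the same arrangement, a gamma-activated site (TTCTAGGAA in Igtp, TTCCAGGAA in Irgm2) followed after 2 bases by the response element core GAAACTGAAA. In Gbp2 the core stands on the other strand as TTTCACTTTC, 50 to 59 bases before the start, and a kappa B match lies after the start. Cxcl9 shows only a kappa B match, 121 to 130 bases before the start, and Chil3 a gamma-activated site match and a kappa B match. These are matches of letters, not shown to be bound.

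Of the 9 interferon list genes at least 2-fold higher under TSLP, 6 have a window in the table, and 3 of those 6 hold the response element core (Gbp2, Igtp and Irgm2). Among all 27025 genes with a window, 3.99% hold it in at least 1 window, and among the genes of this comparison with a window, 4.03%. The gamma-activated site was found in 3 of the 6 (Igtp, Irf1 and Irgm2), against 9.55% of all genes and 8.08% of the genes of this comparison. The kappa B motif was found in 3 of the 6 (Cxcl9, Gbp2 and Irf1), against 22.9% of all genes and 30.7% of the genes of this comparison. The 6 came from an interferon list, so their shares may reflect the list and not the comparison. Shares among list genes short of 2-fold were not counted. Igtp and Irgm2, neighbours with the same arrangement, are not independent. Over all genes higher under TSLP, 5 of the 38 with a window held the response element core (13.2%), and over those higher under IL-13, 1 of 20 (Mmp13). The STAT6 motif was found in 0 of the 20 genes higher under IL-13 and in 8.01% of all genes or 6.71% of those of this comparison. That says only that these letters are not in those windows.

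Interferon response genes were the list with the most members higher under TSLP. Cxcl9, the ligand that draws activated T cells through Cxcr3, had signals of 332 under IL-13 and 2473 under TSLP, with 202 in PBS skin at the outlet, 141 in PBS distal skin, and 349 and 212 in TGF-beta mice 1 and 2. The TSLP array stood alone, 6.95-fold above the IL-13 array on this scale (difference -2.80), while IL-13 skin lay within the range of the TGF-beta mice. The guanylate-binding protein gene Gbp8 had signals of 116 (IL-13), 632 (TSLP), 113 (PBS outlet), 73.2 (PBS distal), 194 and 153 (TGF-beta mice 1 and 2), a difference of -2.20. Gbp2, of the same family of membrane-targeting GTPases, read 879.8 (IL-13), 3063 (TSLP), 908 (PBS outlet), 710.2 (PBS distal), 843 and 825 (TGF-beta mice 1 and 2), a difference of -1.77. IL-13 skin differed from PBS skin at the outlet by 0.04 for Gbp8 and by -0.04 for Gbp2.

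The immunity-related GTPases Igtp, Iigp1 and Irgm2 were also highest on the TSLP array. Igtp read 1029 (IL-13), 3017 (TSLP), 865 (PBS outlet), 746 (PBS distal), 896 and 675 (TGF-beta mice 1 and 2), a difference of -1.53, Iigp1 1648 (IL-13), 4346 (TSLP), 1258 (PBS outlet), 1480.1 (PBS distal), 1497 and 1339.8 (TGF-beta mice 1 and 2), a difference of -1.38, and Irgm2 differed by -1.05. Gbp6 differed by -1.83 and Ubd, a ubiquitin-like modifier induced by interferon-gamma and TNF, by -1.57. Irf1, the transcription factor of the pathway, had 660.5 under IL-13 and 662 in PBS skin at the outlet but 1360.3 under TSLP (difference -1.01). All 9 of these genes were highest on the TSLP array among all 6 arrays. The guanylate-binding and immunity-related GTPases are families of related sequence, and a probe set may bind more than its named member.

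Of 41 interferon genes in the list, 35 were on the array and 31 passed the filter, with 0 set aside. Of the 31, 9 were at least 2-fold higher under TSLP, 0 under IL-13, and 29 had a negative difference. The median was -0.62, or -0.59 after quantile normalization, beside -0.06 over all genes. The TSLP array was the highest of all 6 arrays for 29 of the 31. Ranks of the arrays were not counted over all genes, for this or any other list. Between the TGF-beta mice, 27 of the 31 were lower in mouse 2, with a median of -0.23. The members differed in size within the list. Cxcl9 and the guanylate-binding proteins lay at the far end. Several genes best known from the type I interferon response lay nearer to 0, with Ifit1 at -0.24, Ifit2 at -0.12, Mx1 at -0.23, Usp18 at -0.22, Bst2 at 0.05 and Rsad2 at 0.11. Oas2 (-0.81), Oasl2 (-0.72) and Irf7 (-0.62) stood between. Cxcl10, a second Cxcr3 ligand, was above PBS skin on both arrays, with signals of 501 under IL-13 and 766 under TSLP, with 185 in PBS skin at the outlet, 121 in PBS distal skin, and 314 and 223 in TGF-beta mice 1 and 2, and differed by -0.59.

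Genes of lymphocytes and of antigen handling leaned the same way with smaller differences. Of 9 measured T and NK cell genes, 8 were lower under IL-13, with a median of -0.50 and 0 at least 2-fold apart. Gzmb, a granzyme, read 181 (IL-13), 321 (TSLP), 106 (PBS outlet), 42.5 (PBS distal), 169 and 215 (TGF-beta mice 1 and 2), a difference of -0.74, and Gzma read 379 under IL-13, 549 under TSLP and 549.6 in TGF-beta mouse 2. The defining T cell chain Cd3e was below the filter on both arrays (31.03 and 67.5), and Cd3d and Cd3g differed by -0.29 and -0.13. Ccl5, a chemokine of T and NK cells, read 384 (IL-13), 803 (TSLP), 295 (PBS outlet), 122 (PBS distal), 339.5 and 337 (TGF-beta mice 1 and 2), a difference of -1.01. Tnfrsf4, the T cell receptor OX40 whose ligand TSLP is known to induce on dendritic cells, differed by -1.002, from 133 to 294 with PBS skin at the outlet at 249. TSLP skin thus lay near the PBS level and IL-13 skin below it. Slamf8, a receptor of myeloid cells, read 92.9 (IL-13), 287 (TSLP), 83.7 (PBS outlet), 98.2 (PBS distal), 102 and 98.6 (TGF-beta mice 1 and 2), a difference of -1.38.

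The 14 measured dendritic cell and antigen presentation genes had a median of -0.28, with 0 at least 2-fold apart. The class II transactivator Ciita was at -0.49, the class II peptide loader H2-DMa at -0.70, the dendritic cell factor Batf3 at -0.77 and the Langerhans cell lectin Cd207 at -0.61, while H2-Aa was at 0.21 and B2m at 0.34. Of 9 complement genes, 8 were lower under IL-13, with a median of -0.49 and factor B (Cfb) the lowest at -0.79. The TSLP array was the highest of all 6 for 8 of those 9, and all 9 were lower in TGF-beta mouse 2 than in mouse 1, with a median of -0.21. Beside the interferon genes, the summed signal of the 19 T and NK cell genes on the array was 6323.6 under IL-13 and 6912.1 under TSLP, and between 5735.6 and 6964.6 on the other 4 arrays, PBS skin at the outlet being the highest. The part of cell content in the interferon result was not tested, and in whole skin fewer cells of a type and less RNA per cell cannot be told apart.

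Of the 14 IL-4 and IL-13 response genes used, 12 had a positive difference but only 2 were at least 2-fold higher under IL-13. Chil3, a chitinase-like protein of alternatively activated macrophages, read 4175 under IL-13 and 854 under TSLP, with 1125 in PBS skin at the outlet, 831 in PBS distal skin, and 547 and 332 in TGF-beta mice 1 and 2. IL-13 skin was the highest of the 6 and 4.77-fold above TSLP skin (difference 2.25), and TSLP skin was close to the PBS levels. Il13ra2, the decoy receptor that takes up IL-13, read 468 (IL-13), 182 (TSLP), 91.5 (PBS outlet), 100.3 (PBS distal), 170.0 and 84.6 (TGF-beta mice 1 and 2), a difference of 1.24, with TSLP skin near TGF-beta mouse 1. Both genes were highest under IL-13.

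Other genes of the IL-13 receptor and response differed less or the other way. The receptor chains read 1323 and 1055 for Il4ra (difference 0.32) and 757 and 702 for Il13ra1 (0.11). Retnla, a secreted product of alternatively activated macrophages and fat, was lower under IL-13, with 1515 (IL-13), 2167 (TSLP), 975 (PBS outlet), 9075 (PBS distal), 595 and 367 (TGF-beta mice 1 and 2), a difference of -0.51. The eosinophil chemokine Ccl11 read 1665 under IL-13 and 1131 under TSLP (0.55), and the mannose receptor Mrc1 differed by 0.33. The Th2 chemokines Ccl17 and Ccl22 were below the filter on both arrays, Ccl17 with 74.4 under IL-13 and 129 under TSLP.

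The IL-4 and IL-13 response list had 26 members, of which 16 passed the filter and 2 (Arg1 and Ccl24) were set aside. Of the other 14, 2 were at least 2-fold higher under IL-13 (Chil3 and Il13ra2), 0 under TSLP, and 12 had a positive difference. Their median was 0.28, or 0.16 after quantile normalization. For comparison, 6 ribosomal protein genes, taken as a reference, had a median of 0.35, or 0.03 after quantile normalization. The receptor and STAT6 signalling list had 8 measured members and a median of -0.21, with Stat6 itself at -0.38 and Tyk2 at -0.52.

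Arg1, Ccl24 and Mmp12 are products of IL-13-stimulated macrophages, and all 3 were set aside because they differed 2-fold between the TGF-beta mice. Arg1, the arginase, read 5149 (IL-13), 1556 (TSLP), 474 (PBS outlet), 942 (PBS distal), 1880.3 and 729.8 (TGF-beta mice 1 and 2). It was highest under IL-13, 3.27-fold above TSLP skin, and TSLP skin lay between the 2 TGF-beta mice. Ccl24, an eosinophil chemokine, read 458 (IL-13), 137 (TSLP), 98.8 (PBS outlet), 87.3 (PBS distal), 211 and 70.97 (TGF-beta mice 1 and 2), a difference of 1.57. Mmp12, the macrophage elastase, read 731 (IL-13), 324 (TSLP), 23.4 (PBS outlet), 60.96 (PBS distal), 139 and 53.01 (TGF-beta mice 1 and 2), a difference of 1.11. Both cytokine arrays were above every other array for Mmp12, and IL-13 skin alone was so for Ccl24.

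Transcripts of the TSLP receptor and STAT5 list differed little between the skins, and signalling itself was not measured. Crlf2, the TSLP-binding chain, read 1252 under IL-13, 1479 under TSLP and 1252 in PBS skin at the outlet (difference -0.24). Il7r, its partner, read 249 and 324 (-0.35). The STAT5 feedback genes Cish (0.17), Socs2 (0.48) and Socs3 (0.25) were not higher under TSLP. Over the 10 measured genes of this list the median was -0.03, or 0.04 after quantile normalization, with 0 at least 2-fold apart. Transcripts of the 2 cytokines given by the pumps were below the filter on both arrays, with Il13 at 8.94 and 1.99 and Tslp at 105 and 115, under IL-13 and TSLP in turn. The alarmin Il33 differed by 0.23.

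Car4, a membrane-anchored carbonic anhydrase, read 1636 under IL-13 and 291 under TSLP, with 68.6 in PBS skin at the outlet, 62.8 in PBS distal skin, and 152 and 172 in TGF-beta mice 1 and 2. It was above every other array under both cytokines and 5.23-fold higher under IL-13 than under TSLP (difference 2.39). A second probe set of the gene differed by 2.19. The other 5 measured carbonic anhydrases differed by 0.04 to 0.54, and 0 of them were 2-fold apart.

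Mmp13, a collagenase, read 692 (IL-13), 112 (TSLP), 15.8 (PBS outlet), 1.11 (PBS distal), 86.96 and 151 (TGF-beta mice 1 and 2), a difference of 2.37, with a level under TSLP that lay within the range of the TGF-beta mice. Aldh1a2, which makes retinoic acid, read 181 (IL-13), 33.9 (TSLP), 26.6 (PBS outlet), 105 (PBS distal), 33.6 and 29.6 (TGF-beta mice 1 and 2), a difference of 1.76, and only IL-13 skin passed the filter. Plod2, the lysyl hydroxylase of collagen telopeptides, read 681 (IL-13), 216 (TSLP), 442 (PBS outlet), 279.8 (PBS distal), 243 and 399 (TGF-beta mice 1 and 2). Here IL-13 skin was the highest and TSLP skin the lowest of the 6, a difference of 1.54, and a second probe set differed by 1.43.

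**Figure D2:**
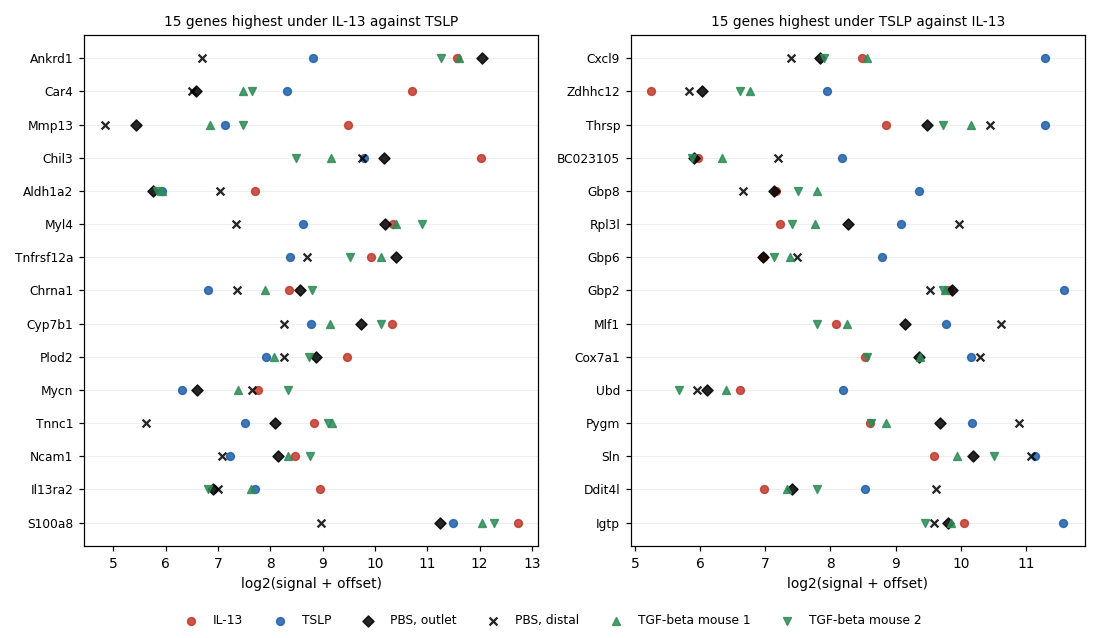
Levels of the 15 genes with the largest difference in each direction, as log2(signal + 27.4) on each of the 6 arrays, 1 symbol an array. Cxcl9 and Gbp2 show the TSLP array apart from the other 5, Car4 and Chil3 the IL-13 array apart, and Ankrd1 a TSLP array below the other outlet arrays.

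Matrix genes otherwise leaned towards IL-13 with few past 2-fold. Of 18 measured matrix proteases and inhibitors, 2 were at least 2-fold higher under IL-13 (Mmp13 and Adamts4, an aggrecanase, 1.10), and the median was 0.26. Mmp3, a stromelysin, went the other way, with 1526 under IL-13, 2203 under TSLP and 589.8 in PBS skin at the outlet (-0.52). Timp1 read 3579 and 2767 (0.37). Of 18 collagen chains, 13 were higher under IL-13, with a median of 0.30, or 0.10 after quantile normalization, and only Col8a1, a short-chain collagen, was 2-fold higher, with 832 (IL-13), 358 (TSLP), 754 (PBS outlet), 37.6 (PBS distal), 1022 and 623 (TGF-beta mice 1 and 2). For 11 of the 18 the TSLP array was the lowest of the 5 outlet arrays, and 17 were lower in TGF-beta mouse 2 than in mouse 1, with a median of -0.19. The TSLP array was also the lowest of the 5 for all 6 ribosomal protein genes taken as a reference. Col1a1 differed by 0.54 and Col3a1 by 0.46.

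The 24 measured matrix glycoproteins and proteoglycans had a median of 0.26, or 0.11 after quantile normalization, with 18 higher under IL-13 and Fbn2, a fibrillin of growing elastic fibres, the only member past 2-fold (1.04). Thbs2 (0.99), Fmod (0.91) and Has2 (0.80) came next, and Tnxb (-0.65) and Thbs3 (-0.59) were lowest. In the 16 collagen crosslinking and processing genes the median was 0.14, and only Plod2 was past 2-fold. Genes known to follow TGF-beta, 22 in number, had their median at 0.24. Their only member past 2-fold was Ankrd1, which striated muscle also expresses, and Ccn2 was lower under IL-13 (-0.56).

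Neutrophil chemokines, high under both cytokines, hardly differed between them. Cxcl1 read 1219 under IL-13, 1272 under TSLP and 162 in PBS skin at the outlet, a difference of -0.06. Cxcl2 differed by 0.25 and Cxcl5, set aside, by 0.18, with 1883, 1662 and 67.4 on the same arrays. Neutrophil products differed more, and S100a8, a subunit of calprotectin, read 6777 (IL-13), 2857 (TSLP), 2392 (PBS outlet), 474 (PBS distal), 4212 and 4932 (TGF-beta mice 1 and 2), a difference of 1.24. Its partner S100a9 differed by 0.41, which is less than 2-fold. Of 10 measured neutrophil genes, 1 was at least 2-fold higher under IL-13 and the median was 0.33.

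Of the 15 monocyte chemokines and acute inflammation genes, 11 were higher under IL-13, with a median of 0.33. Ccl12, a ligand of Ccr2, was just past 2-fold, with 3486 (IL-13), 1723 (TSLP), 1733 (PBS outlet), 984 (PBS distal), 1067 and 1276 (TGF-beta mice 1 and 2), and its relatives Ccl2 (0.65) and Ccl7 (0.77) were short of it. Il6 read 477 under IL-13 and 624 under TSLP (-0.37), Acod1 differed by 0.33 and Il1b by 0.56. The 20 macrophage genes had a median of 0.13, or -0.05 after quantile normalization, with 0 past 2-fold. Adgre1, the macrophage marker F4/80, read 1542 and 1706, and Cd68 read 3597 and 2816. The 7 mast cell genes had a median of 0.22, Cma1 being the highest at 0.79, and 0 of the 6 eosinophil and basophil genes on the array passed the filter. Of 6 B and plasma cell genes past the filter, 3 were set aside, among them Igha (-1.02), and the other 3 ranged from -0.36 to 0.32.

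Muscle genes were found on both sides. Ankrd1, a stress-response protein of striated muscle and a mechanosensitive target in other cells, had the largest difference towards IL-13 among the 7435 genes. Its signals were 3009 under IL-13 and 421 under TSLP, with 4227 in PBS skin at the outlet, 75.7 in PBS distal skin, and 3079 and 2431 in TGF-beta mice 1 and 2. TSLP skin was the low one, 6.77-fold below IL-13 skin (difference 2.76), while IL-13 skin lay within the range of the other outlet arrays, and a second probe set differed by 2.74.

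Myl4, the embryonic and atrial light chain, read 1268 (IL-13), 365 (TSLP), 1145 (PBS outlet), 134 (PBS distal), 1319.7 and 1887 (TGF-beta mice 1 and 2), a difference of 1.72. Chrna1, the alpha subunit of the muscle acetylcholine receptor, read 302 (IL-13), 85.3 (TSLP), 354 (PBS outlet), 138 (PBS distal), 211 and 415 (TGF-beta mice 1 and 2), a difference of 1.55. Tnfrsf12a, the TWEAK receptor, read 947 (IL-13), 305 (TSLP), 1320.3 (PBS outlet), 390.2 (PBS distal), 1077 and 705 (TGF-beta mice 1 and 2), a difference of 1.55. Each was lower under TSLP than on the other outlet arrays.

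Ncam1 (1.26), Xirp1 (1.04) and the slow muscle troponins Tnnc1 (1.33) and Tnni1 (1.01) were the other muscle list genes at least 2-fold higher under IL-13, 8 in all. For all 8 the TSLP array was the lowest of the 5 outlet arrays, and 6 of the 8 were lower still in PBS distal skin. The list of regenerating and stressed muscle genes had 17 of 22 past the filter, 1 of them (Myh3) set aside. Of the other 16, 6 were at least 2-fold higher under IL-13 and 1 under TSLP, with a median of 0.62. The exception was Sln, the sarcolipin that inhibits the calcium pump, with 741 (IL-13), 2241 (TSLP), 1135 (PBS outlet), 2131 (PBS distal), 956 and 1438 (TGF-beta mice 1 and 2). Myog, a transcription factor of differentiating myoblasts, differed by 0.53 and Runx1 by 0.72. The embryonic myosin Myh3 went the other way at -0.41.

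In the list of mature muscle genes, 2 were at least 2-fold higher under TSLP and 2, Tnnc1 and Tnni1, under IL-13. On the TSLP side, Pygm, the muscle glycogen phosphorylase, read 363 (IL-13), 1126 (TSLP), 794 (PBS outlet), 1879 (PBS distal), 434 and 365 (TGF-beta mice 1 and 2), a difference of -1.56. Atp2a1, the calcium pump of fast fibres, read 1682 (IL-13), 3522 (TSLP), 3379 (PBS outlet), 5105 (PBS distal), 2462 and 1772 (TGF-beta mice 1 and 2), a difference of -1.05. IL-13 skin was below PBS skin at the outlet for both, and near TGF-beta mouse 2.

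A further 12 genes of striated muscle among those higher under TSLP were in no list and were picked after their values were seen. They are Rpl3l, Cox7a1, Cox8b, Mylk2, Txlnb, Kcna7, Adssl1, Pfkm, Fbp2, Hrc, Hhatl and Tmod4, with differences from -1.85 to -1.01. Rpl3l, the muscle form of a ribosomal protein, read 123 (IL-13), 512 (TSLP), 279.7 (PBS outlet), 979 (PBS distal), 189 and 143 (TGF-beta mice 1 and 2), and Cox7a1, a muscle subunit of cytochrome oxidase, 343 (IL-13), 1111 (TSLP), 633 (PBS outlet), 1233 (PBS distal), 635 and 351 (TGF-beta mice 1 and 2). In all 12, IL-13 skin was below PBS skin at the outlet, and TSLP skin was above it in 11. All 12 were also lower in TGF-beta mouse 2 than in mouse 1, which had the same treatment. That those differences were below 2-fold follows from the rule that set genes aside. With the list members Pygm, Atp2a1 and Sln they make 15 of the 51 genes. No such pick was made among the genes higher under IL-13. This count can therefore not be set against the 8 muscle list genes there.

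Acta1 and Ckm were short of 2-fold and leaned opposite ways. Acta1, the skeletal actin, read 16086 under IL-13 and 11674 under TSLP (0.46), and Ckm, the muscle creatine kinase, 7241 and 9559 (-0.40). The mature muscle list had 23 of 26 genes past the filter, of which 6 were set aside, among them Smtnl1 (-2.30) and Apobec2 (-1.82). Of the other 17, 9 were higher under IL-13 and 8 under TSLP, and the median was 0.03, but -0.20 after quantile normalization and -0.14 with the set-aside genes kept. Summed over the 24 list genes on the array, the muscle signal was 143900 under IL-13 and 147190 under TSLP, against 173540 in PBS skin at the outlet, and 187620 and 130470 in TGF-beta mice 1 and 2. The summed muscle signal of the IL-13 and TSLP skins thus differed little. Such a sum is carried by the brightest genes and can hide differences of single genes that go opposite ways. Whether more or other fibres lay in 1 piece of skin was not tested.

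**Figure D3:**
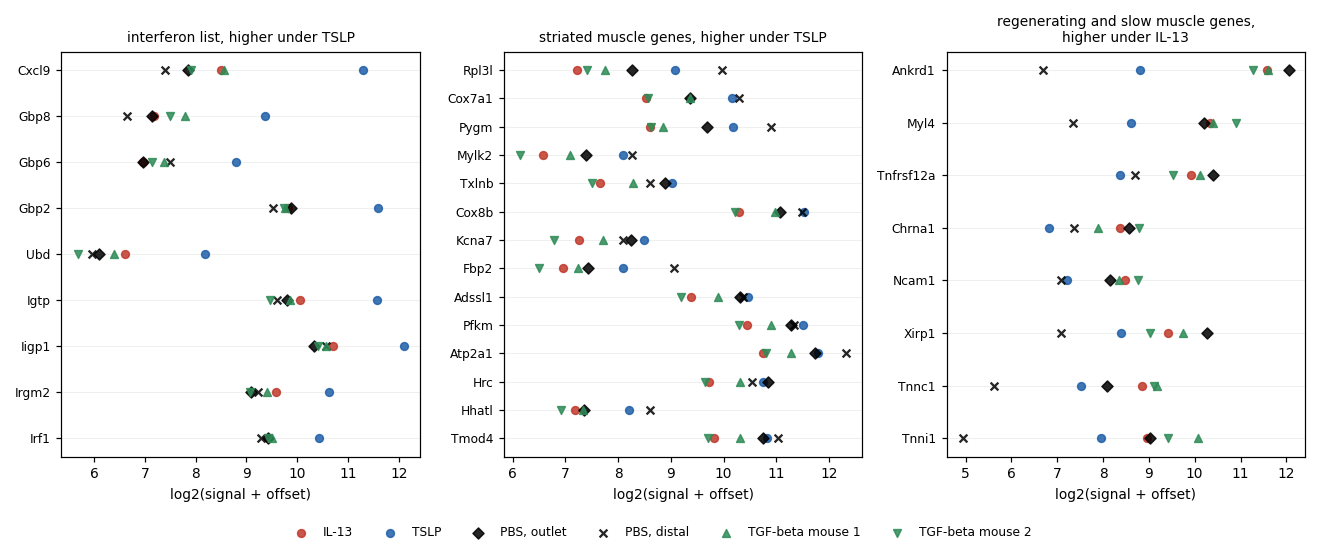
Levels as log2(signal + 27.4) on each of the 6 arrays, 1 symbol an array, for interferon list genes higher under TSLP (left), 14 striated muscle genes higher under TSLP (middle, 12 of them picked after their values were seen, Sln not drawn) and muscle list genes higher under IL-13 (right). On the left the TSLP array is the highest for all 9 genes, and on the right it is the lowest of the 5 outlet arrays for all 8.

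Adipocyte genes had the lowest median of the lists, -0.77 over 16 measured members, of which 14 were lower under IL-13. Thrsp, a regulator of lipogenesis, read 436 under IL-13 and 2489 under TSLP, with 689.8 in PBS skin at the outlet, 1367 in PBS distal skin, and 1109 and 824 in TGF-beta mice 1 and 2. TSLP skin was the highest and IL-13 skin the lowest of the 6, 5.44-fold apart (difference -2.44), and a second probe set differed by -2.24. Cidec, a lipid droplet protein, read 240.4 (IL-13), 631 (TSLP), 509 (PBS outlet), 709 (PBS distal), 545 and 315 (TGF-beta mice 1 and 2), a difference of -1.30. Leptin (Lep) differed by -1.12 and the glycerol phosphate dehydrogenase Gpd1 by -1.07. Other probe sets of Gpd1, all below the filter, differed by -0.63, 0.68 and 0.08. Lep and Gpd1 were no longer past 2-fold at the doubled offset.

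These 4 genes were highest of the 5 outlet arrays under TSLP. Short of 2-fold were the hormone-sensitive lipase Lipe (-0.96), Fasn (-0.83), Dgat2 (-0.82) and Adipoq (-0.79, with 3127 (IL-13), 5420.5 (TSLP), 3954 (PBS outlet), 7359 (PBS distal), 4314 and 3474 (TGF-beta mice 1 and 2)). Other fat genes did not differ in this way, with Fabp4 at 0.13, Cd36 at 0.16 and Pparg at -0.06. The summed signal of the 18 adipocyte genes on the array was 32943 under IL-13 and 42325 under TSLP, and between 35623 and 46596 on the other 4 arrays. How much fat lay in each piece was not tested as a part of this result.

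Cell cycle genes had no member past 2-fold, yet 22 of 24 were higher under IL-13, with a median of 0.55, or 0.63 after quantile normalization. Cdc20, an activator of the anaphase-promoting complex, read 1448 (IL-13), 763 (TSLP), 1604 (PBS outlet), 1217 (PBS distal), 1589.5 and 2135 (TGF-beta mice 1 and 2), a difference of 0.90. Mki67 differed by 0.43 and Top2a by 0.60. For 22 of the 24 the TSLP array was the lowest of the 5 outlet arrays, and for all 24 it was below PBS skin at the outlet. The list also moved within 1 treatment, and all 24 were higher in TGF-beta mouse 2 than in mouse 1, with a median difference of 0.34. Pclaf, a PCNA-binding factor outside the list, read 1333 (IL-13), 582 (TSLP), 908 (PBS outlet), 972 (PBS distal), 1338 and 2138 (TGF-beta mice 1 and 2), a difference of 1.16.

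Vessel genes and glucocorticoid and metal response genes had no member past 2-fold. Of the 19 endothelial and lymphatic genes, 14 were lower under IL-13, with a median of -0.34, and 16 were lower in TGF-beta mouse 2 than in mouse 1, with a median of -0.32. In the comparison of the cytokines, Pecam1 was at -0.59 and Cdh5 at -0.57. The 12 glucocorticoid and metal response genes had a median of -0.38, with 7 lower and 5 higher under IL-13. Its lowest members were the glucocorticoid targets Per1 (-0.91), Fkbp5 (-0.90), Zbtb16 (-0.89), Ddit4 (-0.80) and Tsc22d3 (-0.79). Fkbp5 read 633 (IL-13), 1202 (TSLP), 1409 (PBS outlet), 1563 (PBS distal), 1053 and 1175 (TGF-beta mice 1 and 2), the IL-13 array being the lowest of the 6. Klf15, another glucocorticoid target outside the list, was past 2-fold (-1.18). The metallothioneins Mt1 (0.01) and Mt2 (0.22) did not share this pattern. The 9 smooth muscle and myofibroblast genes had a median of -0.30, beside -0.32 for TGF-beta mouse 2 minus mouse 1, with Acta2 at 0.03.

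Genes of the skin epithelium had no member past 2-fold. Krt5 and Krt14, keratins of the basal layer, read 6448 and 6775 under IL-13 and 6031 and 5886 under TSLP, and Krt10 of the upper layers 16849 and 12656, so both pieces carried the markers of skin. Medians were -0.13 over 9 basal, 0.15 over 11 differentiated keratinocyte and 0.25 over 7 sebaceous genes. Of 4 stressed keratinocyte genes past the filter, 1 was set aside, and the other 3 ranged from -0.35 to 0.26. The 20 glycolysis and hypoxia genes had a median of 0.09, with the glucose transporter Slc2a1 at 0.82, and the 29 oxidative phosphorylation genes one of -0.01. The 3 Schwann cell genes used, Egr2, Erbb3 and Pmp22, were at 0.42, -0.13 and -0.09, and the 3 erythroid genes used ranged from 0.04 to 0.82.

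**Figure D4:**
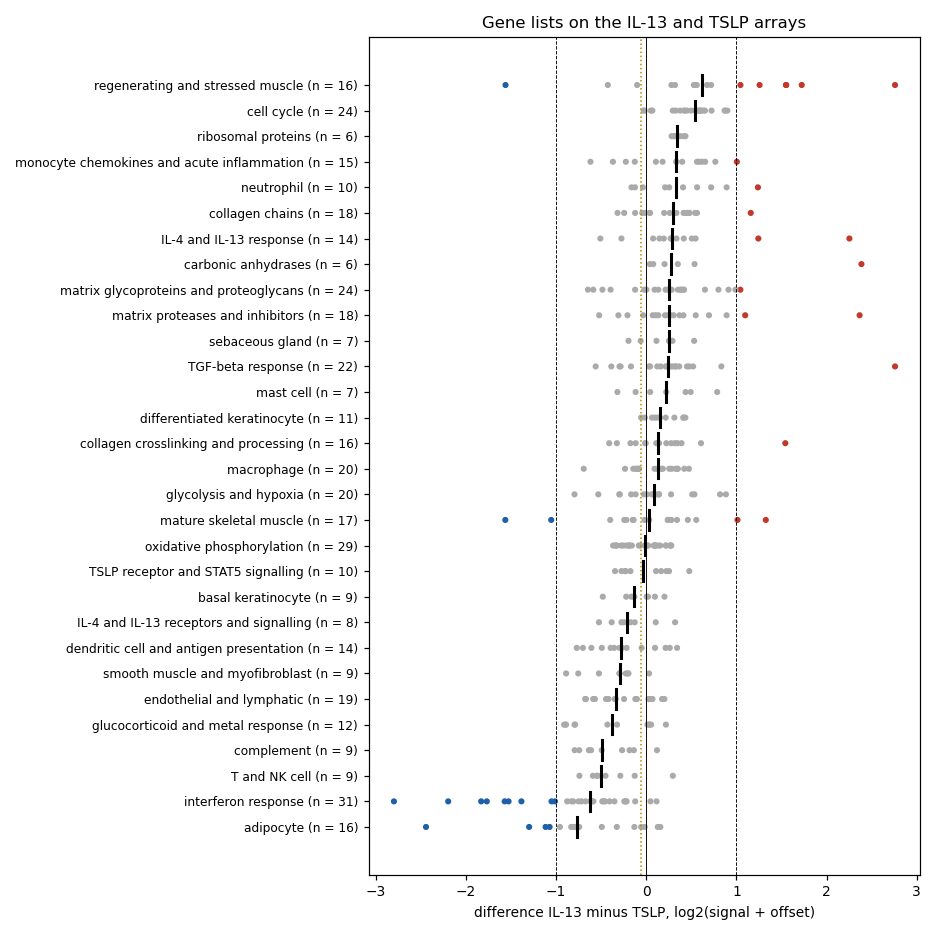
Differences IL-13 minus TSLP, in log2 units, for each used member (points) of each list with at least 5 used members, with the list's median (black bar). Dashed lines mark 2-fold, the dotted line the median of all 7435 genes (-0.06), and red and blue points are past 2-fold. The interferon list holds 9 blue points and the regenerating and stressed muscle list 6 red and 1 blue.

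Of the genes higher under TSLP, 23 belonged to none of the interferon, muscle and adipocyte groups. Zdhhc12, a palmitoyltransferase, read 10.7 (IL-13), 218 (TSLP), 38.03 (PBS outlet), 29.3 (PBS distal), 81.5 and 70.3 (TGF-beta mice 1 and 2), a difference of -2.69 with only TSLP skin past the filter. BC023105 read 34.9 (IL-13), 262 (TSLP), 32.4 (PBS outlet), 119.7 (PBS distal), 53.7 and 31.2 (TGF-beta mice 1 and 2), a difference of -2.21, again past the filter under TSLP alone. Mlf1 read 244 (IL-13), 848 (TSLP), 536 (PBS outlet), 1544 (PBS distal), 278 and 194 (TGF-beta mice 1 and 2), and Ddit4l 99.04 (IL-13), 342 (TSLP), 142 (PBS outlet), 763 (PBS distal), 134 and 195 (TGF-beta mice 1 and 2), both with a PBS distal level above that under TSLP. Neu2, a cytosolic sialidase (-1.44), Sult1a1, a sulfotransferase (-1.30), and Cdo1, the cysteine dioxygenase (-1.18), were below PBS skin at the outlet under IL-13 and above it under TSLP. Islr (-1.19), the clock gene Per3 (-1.12), Grb14 (-1.10) and AW112010 (-1.02) were within 0.30 of PBS skin under IL-13 and above it under TSLP by 1.03 to 1.35. A further 8, Ttr, Egf, Ace, Adamtsl4, Adamts10, Cmbl, Tcea3 and Mepce, lay between -1.23 and -1.01, and Slamf8, Klf15, Ccl5 and Tnfrsf4 are given above.

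Of the genes higher under IL-13, 9 belonged to none of the type 2, muscle, matrix, carbonic anhydrase, neutrophil and chemokine lists. Besides Aldh1a2 and Pclaf they were Cyp7b1, Mycn, Hbegf, Fosb, Tent5c, Myhas and Nme1. Cyp7b1, an oxysterol hydroxylase, read 1253 (IL-13), 410.4 (TSLP), 819 (PBS outlet), 279 (PBS distal), 536 and 1077 (TGF-beta mice 1 and 2), a difference of 1.55, and a second probe set differed by 1.46. Hbegf, a ligand of the EGF receptor, read 308 (IL-13), 117 (TSLP), 215 (PBS outlet), 105 (PBS distal), 192 and 155 (TGF-beta mice 1 and 2), a difference of 1.21. Fosb, an immediate early factor, read 187 (IL-13), 67.5 (TSLP), 48.1 (PBS outlet), 30.3 (PBS distal), 28.9 and 19.5 (TGF-beta mice 1 and 2), and only IL-13 skin passed the filter. Nme1 was past 2-fold in 1 probe set (1.03) that can bind related transcripts, and at 0.39 in another.

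The level of the other outlet arrays showed which skin stood apart. Of the 51 genes higher under TSLP, the TSLP array alone lay outside the range of the other 3 outlet arrays in 26, both cytokine arrays did on opposite sides in 24, the IL-13 array alone in 0, and neither in 1. Of the 27 genes higher under IL-13, the TSLP array alone lay outside in 13, the IL-13 array alone in 8, and both in 6. Since these genes were picked for a difference between the 2 arrays, 1 or the other being extreme follows in part from the choice. PBS skin at the outlet was nearer to the IL-13 level in 30 of the 51 and nearer to the TSLP level in 12 of the 27.

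Just inside the threshold on the IL-13 side were Ccl12 (1.00), Tnni1 (1.01) and Nme1 (1.03), and just outside Map3k12 (0.99), Thbs2 (0.99) and Tcfl5 (0.94). On the TSLP side Tnfrsf4 (-1.002), Tmod4 (-1.01) and Mepce (-1.01) were just inside, and Hamp (-0.997), Pkia (-0.99) and Rbp4 (-0.98) just outside. Of the 78 genes past it, 24 had other probe sets, 34 in all, of which 14 passed the filter. None of these 14 had the opposite sign, and 9 were themselves past 2-fold.

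The genes set aside held large differences that the TGF-beta pair shows can arise within 1 treatment. Of the 123, 26 (21.1%) were also 2-fold apart between IL-13 and TSLP, 15 higher under IL-13 and 11 under TSLP. Keratins, their associated proteins and other hair follicle genes made up 7 of the 26. Krt25, a keratin of the inner root sheath of the hair follicle, read 1049 under IL-13 and 30.8 under TSLP, with 12.3 in PBS skin at the outlet, 441 in PBS distal skin, and 29.8 and 13132 in TGF-beta mice 1 and 2. Its difference of 4.21 was the largest of the 7558 genes, and that between the TGF-beta mice was larger, at 7.85. Krt27 (3.44) and Tchh, trichohyalin of the inner root sheath (2.69), ran with it, as did the keratin-associated Krtap8-1 (3.81) and the pigment cell gene Pmel (1.12). The summed signal of the 31 hair follicle genes on the array was 5502.5 under IL-13, 2208.2 under TSLP, 2168.1 in PBS skin at the outlet, 4656.8 in PBS distal skin, and 1910.2 and 61591 in the TGF-beta mice.

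Exocrine pancreas genes were all set aside, 18 of the 18 that passed the filter. Prss2, a trypsinogen, read 1981 (IL-13), 1547 (TSLP), 493 (PBS outlet), 115 (PBS distal), 182 and 1256 (TGF-beta mice 1 and 2), and Cpa1, a carboxypeptidase, 1115 (IL-13), 1118 (TSLP), 512 (PBS outlet), 46.1 (PBS distal), 93.7 and 735 (TGF-beta mice 1 and 2). IL-13 and TSLP skins differed by 0.35 in Prss2 and by -0.003 in Cpa1, while the TGF-beta mice differed in them by more than 2-fold. Greb1 read 277 (IL-13), 58.7 (TSLP), 525 (PBS outlet), 359 (PBS distal), 53.2 and 308 (TGF-beta mice 1 and 2) and Ngfr, the low-affinity nerve growth factor receptor, 374 (IL-13), 131 (TSLP), 563 (PBS outlet), 451 (PBS distal), 162 and 409.6 (TGF-beta mice 1 and 2), both lower under TSLP and both set aside. Among the muscle genes set aside, large differences were towards TSLP, with Ckmt2, the muscle mitochondrial creatine kinase, at -2.03 and Myom2 at -1.31.

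**Figure D5:**
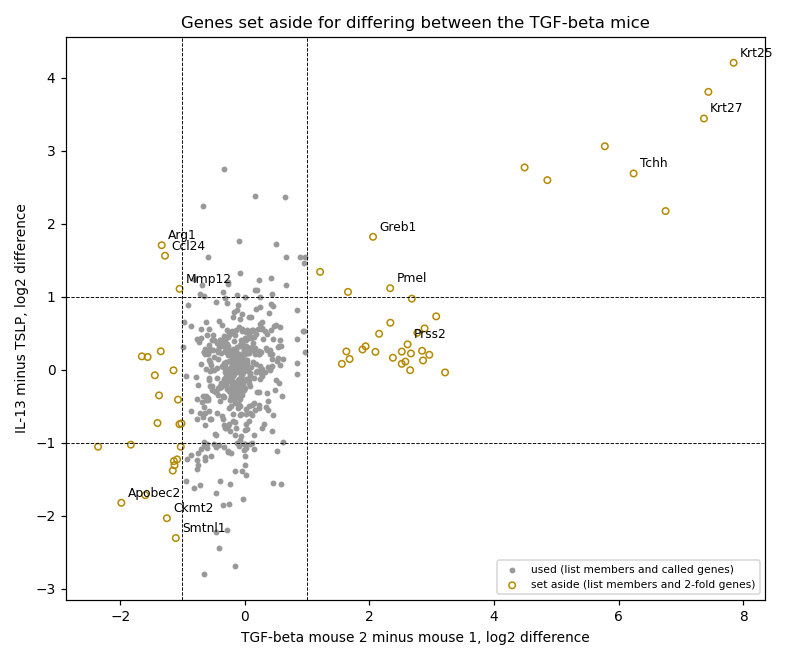
Each point is a list member or a gene at least 2-fold apart, with the difference between TGF-beta mouse 2 and mouse 1 (x axis) and that between IL-13 and TSLP (y axis), both in log2 units. Dashed lines mark 2-fold. Open circles outside the vertical lines were set aside, with hair follicle genes such as Krt25 at the upper right and the muscle genes Smtnl1 and Apobec2 at the lower left.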

How the data were processed

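RNA of mouse skin was hybridised to 6 single-colour Affymetrix arrays. The authors deposited linear intensities. The submitters' processing notes name MAS5 as the tool. With 2% trimmed from either end, array means ran from 500.16 to 500.2. Version and genome build are not given in the sources used here. Arrays were scaled to a common trimmed mean and set on log2(signal + 27.4), the offset being the 25th percentile of all values. Array medians ran from 160.2 (IL-13) to 171.4 (TSLP), and the 3'/5' ratio of the actin control probe sets was 1.25 and 1.19 there. Of 22690 probe sets, 64 were controls, 20380 named 1 gene, 691 several and 1555 are unnamed here. Symbols of 20351 were updated by gene number from RefSeq (GRCm38.p6). The probe set with the highest mean stood for a gene. The number of arrays limits the precision.

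The 2 groups have 1 array each, so differences were described by size. As an alternative, limma 3.58.1 (R 4.3.3) was fitted to 5 groups with an intensity trend, after the step was tested on simulated data. It had 1 residual and 3.18 prior degrees of freedom. Both single arrays were assumed to vary like the TGF-beta arrays, which are titled as mouse 1 and mouse 2. The IL-13 and TSLP arrays have no replicate, so a p-value from this fit rests only on the spread of the TGF-beta pair. The genes named were the 15 with the largest difference in each direction, list members past 2-fold, preset key genes and the 3 genes on either side of each threshold, with further ones named after their values were seen. The members and lists were chosen with earlier results of these data known. Python 3.11.15, numpy 2.4.6 and pandas 2.3.3 were used.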

Additional observations from a re-analysis of the deposited data

How the results depend on the processing

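Against 27 genes higher under IL-13 and 51 higher under TSLP, requiring both arrays above the filter gave 17 and 31, leaving no gene aside 42 and 62, and dropping the filter 40 and 77. Limma with the borrowed spread called 0 and 0. Every other setting of the 10 lay within 1.5 times of both counts, from 22 and 40 at the doubled offset to 31 and 63 with a floor, quantile normalization giving 28 and 44. Called under all settings but limma were 9 of the 27 (Ankrd1, Car4, Chil3, Myhas, Myl4, Pclaf, Plod2, Tent5c and Tnfrsf12a) and 22 of the 51, among them Cxcl9, Gbp2, Igtp, Iigp1, Irgm2, Thrsp, Cidec, Pygm and Atp2a1. With a floor Il13ra2 was set aside, its difference being 1.36, and without probe sets ending in s_at or x_at S100a8 had none left. Irf1, Ccl5 and Ccl12 fell short at the doubled offset and after quantile normalization. No named gene past 2-fold changed sign under the 9 settings other than limma. Of 30 list medians, 3 did, those of the STAT5, macrophage and mature muscle lists. After quantile normalization the ribosomal protein median went from 0.35 to 0.03. No paired analysis was possible because each of the 2 groups has 1 array. Genes dim on both arrays entered no count.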
